A study of Mus musculus with 2 samples.

Results

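Sirtuins are enzymes that use NAD to remove acetyl and other acyl groups from lysines of proteins. The family has 7 genes in the mouse, Sirt1 to Sirt7, and was chosen by name: every probe whose gene symbol in the platform annotation is a member was taken, whatever its value. Each of the 7 had 1 probe, out of 16387 named genes on the arrays. RNA of whole hearts was hybridised to 2 arrays read in 2 colours, with a pair of hearts on each. The first pair came from mice with a cardiomyocyte-specific Sirt1 knockout, 1 after caloric restriction (CR) and 1 fed ad libitum (AL), and the second pair from control mice, 1 CR and 1 AL. All were male, had the C57BL/6J background, were given an age of 6 months and had 3 months of either diet, with CR given in the labels as a 40% restriction. The promoter that drives the deletion, the deleted stretch of Sirt1 and the alleles that the control mice carry are not given in the labels. A deletion in cardiomyocytes leaves Sirt1 in the other cell types of the heart. Each condition was measured in 1 heart, so no value has a replicate check, and no p-value or SD over mice can be given. On both arrays the CR heart carried the dye Cy3 and the AL heart Cy5, so diet and dye cannot be told apart. Each genotype was on an array of its own, so genotype and array cannot be told apart.

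Because every sirtuin consumes NAD, the family is known as a link between the energy state of a cell and the acetylation of its proteins. Sirt1 is found mainly in the nucleus and also in the cytoplasm, where it deacetylates transcription factors and co-activators such as the products of Trp53, Foxo1 and Ppargc1a. Sirt2 is mainly cytoplasmic, Sirt3, Sirt4 and Sirt5 lie in mitochondria, and Sirt6 and Sirt7 are nuclear. In the heart, a tissue rich in mitochondria, the mitochondrial members act on enzymes of fuel oxidation. The design sets the heart's response to CR side by side in mice labelled as cardiomyocyte-specific Sirt1 knockouts and in control mice.

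RefSeq promoter windows of the build GRCm38.p6, the 250 bases before a listed start, were matched for 7 of 7 members, in 9 windows. Those of Sirt1, Sirt2 and Sirt7 and a window of Sirt3 lie just before the start of the gene span. Those of Sirt4, Sirt5 and Sirt6 and another of Sirt3 lie partly or wholly inside the span. For Sirt4, Sirt5 and Sirt6 the 250 bases before the span were thus not fully searched. The windows of Sirt1, the deleted gene, and of Sirt2, the other member found in the cytoplasm, are shown because they differ in letters. A second reason was that the log2 CR over AL values of these genes lay far apart on the control array, at 0.42 and -0.04. On the knockout array the values were nearer to each other, at 0.43 for Sirt1 and 0.14 for Sirt2. There, subtraction of the brightness around each spot put Sirt2 (0.40) above Sirt1 (0.25). The Sirt1 window is chr10:63339036-63339285 on the minus strand and the Sirt2 window is chr7:28766502-28766751 on the plus strand. Both are written 5′ to 3′ along the gene, with the E-box CACGTG in capitals.
Sirt1: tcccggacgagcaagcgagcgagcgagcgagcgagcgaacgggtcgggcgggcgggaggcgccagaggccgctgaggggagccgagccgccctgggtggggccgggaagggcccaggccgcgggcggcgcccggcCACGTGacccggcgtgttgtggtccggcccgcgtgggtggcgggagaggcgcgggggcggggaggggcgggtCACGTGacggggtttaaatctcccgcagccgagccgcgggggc
Sirt2: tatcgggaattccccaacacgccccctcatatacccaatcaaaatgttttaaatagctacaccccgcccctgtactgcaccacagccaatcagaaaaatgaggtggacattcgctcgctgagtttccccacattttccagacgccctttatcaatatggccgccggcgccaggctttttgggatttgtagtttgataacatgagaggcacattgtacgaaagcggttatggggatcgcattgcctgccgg
The Sirt1 window held 2 E-boxes, which start at positions -115 and -43 counted from the gene start, and no other member's window held any. CACGTG, which reads the same on both strands, was present in 6.02% of 32851 such windows. The Sirt1 window was 79.2% G and C with 39 CpG, the Sirt2 window 50% with 13 CpG, and the median window 52.4% with 6 CpG. The GC box GGGCGG, searched on both strands, occurred 6 times in the Sirt1 window and 1 time in the Sirt2 window, and 32.7% of all windows held at least 1. The FOXO core GTAAACA (in 3.17% of windows) and the cAMP response element core TGACGTCA (in 1.55%, and the same on both strands) were in no member's window. The core site of NRF1, also the same on both strands and in 0.782% of windows, was in 1 of the Sirt6 windows. Sirt5, whose CR over AL value on the control array was the highest of the family (0.57), had no E-box, 13 CpG and 1 GC box. These are the counts of Sirt2, in a window that lies partly inside the gene. The pair shown was picked with its CR values known, and a relation of letters to CR values was not tested. All of these are matches of letters and not measured binding sites.

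All 7 probes were above the blank spots in all 4 hearts, by more than 2 SD of the blank spots, which is the limit used for detection. Between 74.0% and 80.7% of all probes passed that limit in a heart. The Sirt6 probe was the closest to it, at 3.39 to 4.72 blank SDs. Its spot read 84.6 in the knockout CR heart (limit 80.9), 41.8 in the knockout AL heart (limit 38.2), 86.1 in the control CR heart (limit 79.6) and 37.2 in the control AL heart (limit 34.8), in scanner units. Sirt6 removes acetyl groups from histones and takes part in DNA repair, and its values rest on the least signal in the family. The other 6 probes lay at least 28.0 blank SDs above the blank mean in every heart. All 10 measured ventricular cardiomyocyte markers were detected in every heart. Their summed spot brightness above blank, before normalization, was between 220504 and 233217.

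**Figure D1:**
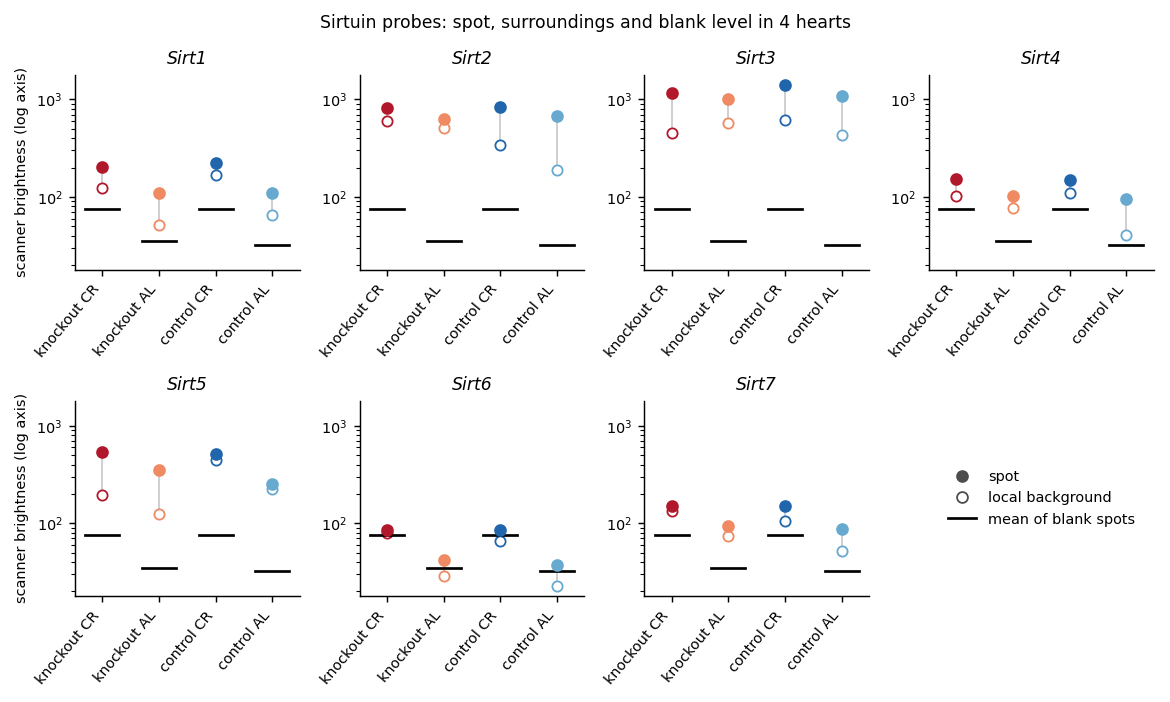
Brightness of the 7 sirtuin probes in scanner units on a log axis, with the spot (filled), its local background (open) and the mean of the blank spots (bar) in the knockout CR, knockout AL, control CR and control AL heart. Sirt6 lies just above the blank level in all 4 hearts, and the local background of Sirt5 is close to its spot in the control hearts only.

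Sirt1, the target of the deletion, differed between the genotypes by a few hundredths of a log2 unit. Its normalized log2 signal was 7.51 in the knockout CR heart, 7.07 in the knockout AL heart, 7.53 in the control CR heart and 7.11 in the control AL heart. Both CR hearts were thus higher than both AL hearts, and the knockout heart was a little lower than the control heart on either diet. Knockout over control was -0.02 under CR and -0.04 under AL. The spots themselves read 202 in the knockout CR heart and 222.0 in the control CR heart, both in Cy3. In Cy5 they read 108.5 in the knockout AL heart and 108.8 in the control AL heart. With the local background around each spot subtracted, the signals were 7.20 and 6.95 in the knockout CR and AL hearts and 6.84 and 6.73 in the control CR and AL hearts. On that scale the knockout hearts were the higher ones, by 0.36 under CR and 0.23 under AL. The position of the probe on Sirt1 relative to the deleted stretch is not known here, so the probe does not check the genotype. In a whole heart, fewer cells of a type and less RNA per cell cannot be told apart.

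CR over AL of Sirt1 was 0.43 on the knockout array and 0.42 on the control array, that is 1.35-fold and 1.33-fold higher in the CR heart. Of all genes compared, 2.01% had a higher value on the knockout array and 2.66% on the control array. Among the 2704 genes with a signal within 0.5 log2 units of Sirt1, the shares were 2.37% on the knockout array and 2.44% on the control array. The knockout response minus the control response was 0.02. Under the 6 alternative settings that could move it, Sirt1 stayed above 0 on both arrays, between 0.25 and 0.68 on the knockout array and between 0.11 and 0.61 on the control array. In the authors' deposited table Sirt1 was 0.64 (1.56-fold) on the knockout array and 0.59 on the control array.

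Sirt5, which removes succinyl, malonyl and glutaryl groups from mitochondrial proteins, had the widest range of the family over the 4 hearts. Its log2 signal was 9.002 in the knockout CR heart, 8.65 in the knockout AL heart, 8.75 in the control CR heart and 8.18 in the control AL heart. The CR heart was higher than the AL heart of its genotype on both arrays, and the knockout heart was higher than the control heart on both diets. This range of 0.82 log2 units was exceeded by 3.93% of 11698 genes detected in all hearts, whose median range was 0.23. CR over AL was 0.35 (1.27-fold) on the knockout array and 0.57 (1.48-fold) on the control array. Higher values were held by 3.44% of genes on the knockout array and 0.917% on the control array. Among 1188 genes of like signal these shares were 9.18% on the knockout array and 2.86% on the control array. The response was thus smaller on the knockout array, by a difference of -0.22, and it lay between -0.30 and -0.03 under the 6 alternatives that could move it. Lower differences were held by 9.04% of genes and by 18.1% of the 1188 genes of like signal. A between-probe SD of 0.175, taken from 131 genes with several probes, gives a scale for such differences but holds no spread between mice.

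Knockout over control of Sirt5 was 0.25 (1.19-fold) under CR and 0.47 (1.39-fold) under AL. Higher values were held by 9.56% of genes under CR and 4.08% under AL. Among the 1188 genes of like signal these shares were 18.6% under CR and 10.4% under AL. The brightness around the Sirt5 spot also differed between the arrays. The spot and its local background read 533 and 193 in the knockout CR heart, and 352 and 123.5 in the knockout AL heart. In the control CR heart they read 507 and 448, and in the control AL heart 254 and 223. The control spots stood little above their surroundings, at a background of 88.3% (CR) and 87.9% (AL) of the spot, against 36.2% (CR) and 35.1% (AL) on the knockout array. With the local background subtracted, Sirt5 was higher in the knockout by 1.81 under CR and 1.84 under AL. As reported and under the other alternatives it lay between 0.16 and 0.29 under CR and between 0.38 and 0.55 under AL. CR over AL within an array was less affected and ran from 0.33 to 0.38 on the knockout array and from 0.37 to 0.68 on the control array over the settings.

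**Figure D2:**
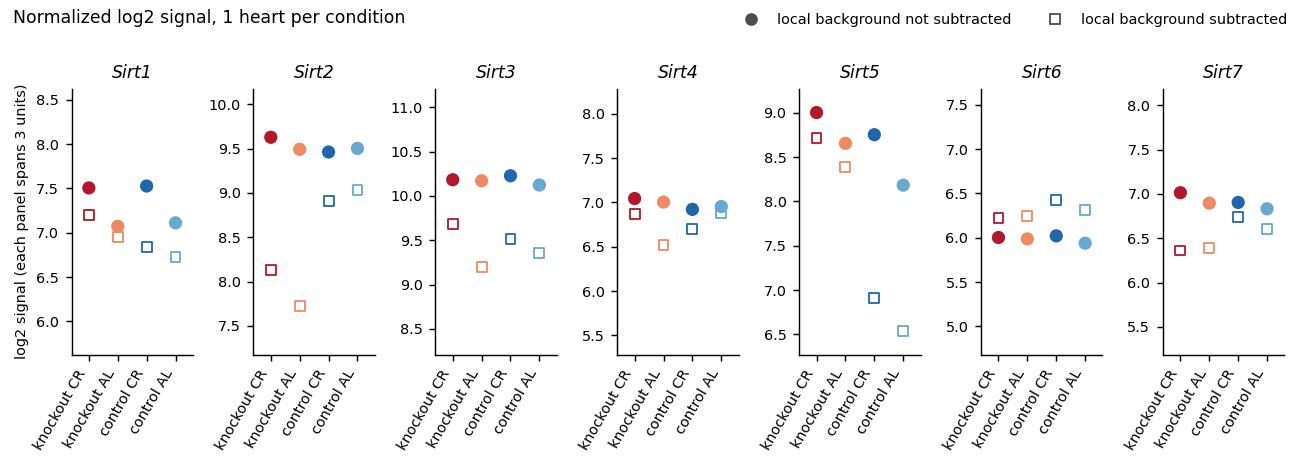
Normalized log2 signal of each sirtuin in the knockout CR, knockout AL, control CR and control AL heart, 1 point per heart, without (circles) and with (squares) subtraction of the local background, on axes of equal span. Sirt1 and Sirt5 separate the CR from the AL heart on both arrays, and subtraction of the local background moves Sirt5 and Sirt2 apart between the genotypes.

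The mitochondrial Sirt3, the main deacetylase of that compartment, was level across the hearts. Its log2 signal was 10.18 in the knockout CR heart, 10.17 in the knockout AL heart, 10.23 in the control CR heart and 10.12 in the control AL heart. The range of 0.10 was narrower than that of 84.2% of genes, and CR over AL was 0.01 on the knockout array and 0.10 on the control array. The knockout was at -0.04 relative to control under CR and at 0.05 under AL. On the knockout array, subtraction of the local background gave a CR over AL value of 0.49.

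Sirt4, a mitochondrial member known to restrain glutamate dehydrogenase, gave log2 signals of 7.04 in the knockout CR heart, 7.004 in the knockout AL heart, 6.92 in the control CR heart and 6.95 in the control AL heart. Both knockout hearts were above both control hearts, by less than the between-probe SD of either genotype comparison (0.234 under CR and 0.24 under AL). CR over AL was 0.04 on the knockout array and -0.03 on the control array. With the local background subtracted it was 0.35 on the knockout array and -0.18 on the control array. Knockout over control was 0.12 under CR and 0.05 under AL, and subtraction of the local background made the second value -0.36.

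Sirt2, which deacetylates tubulin, gave log2 signals of 9.63 in the knockout CR heart, 9.49 in the knockout AL heart, 9.46 in the control CR heart and 9.50 in the control AL heart. The knockout CR heart was the highest and the other three lay within 0.04 of each other. CR over AL was 0.14 on the knockout array and -0.04 on the control array, where median centring turned the value to 0.06. With the local background subtracted it was 0.40 on the knockout array and -0.13 on the control array. Knockout over control was 0.17 under CR and -0.01 under AL. As with Sirt5, the surroundings of the Sirt2 spot differed between the arrays, in the opposite direction: the local background was 608 and 508 in the knockout CR and AL hearts, against 342 and 191 in the control CR and AL hearts. With it subtracted, knockout over control was -0.78 under CR and -1.31 under AL.

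Sirt6 and Sirt7 are the nuclear members. Sirt7, a nucleolar member linked to transcription of ribosomal DNA, gave log2 signals of 7.01 in the knockout CR heart, 6.90 in the knockout AL heart, 6.90 in the control CR heart and 6.83 in the control AL heart. The CR heart was the higher on both arrays, by 0.12 on the knockout array and 0.07 on the control array, and subtraction of the local background turned the first value to -0.02. Sirt6 gave log2 signals of 6.00 in the knockout CR heart, 5.99 in the knockout AL heart, 6.02 in the control CR heart and 5.94 in the control AL heart. The range of 0.08 says little about Sirt6, because near the blank level the offset of 50 added to every corrected signal draws log2 ratios towards 0. In the authors' deposited table, made with the blank mean subtracted, Sirt6 was 0.23 (1.17-fold) on the knockout array and 0.87 (1.83-fold) on the control array.

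Counted together, 7 of 7 members were higher in the CR heart on the knockout array, with a median of 0.12, where 50.1% of all genes were above 0. On the control array 5 of 7 were higher, with a median of 0.08, where 51.4% of all genes were above 0. None of the 7 was past 1.5-fold in either direction on the knockout array, where 0.758% of 12141 genes were past it upwards and 0.758% downwards. None was past it on the control array either, where 0.814% of 12656 genes were past it upwards and 0.34% downwards. As reported, the family medians were smaller than the between-probe SDs of 0.182 on the knockout array and 0.188 on the control array. That SD is a spread of single probes, so it does not measure the error of a median of 7 genes. Only Sirt1 and Sirt5 exceeded it on both arrays as reported. With the local background subtracted only Sirt5 did, and the knockout array median was 0.33. Sirt1 was then 0.25 on the knockout array, below Sirt2 (0.40), Sirt3 (0.49), Sirt4 (0.35) and Sirt5 (0.33), and 0.11 on the control array. Of the 6 alternatives that could change it, 2 kept the count of 7 of 7 on the knockout array, median centring and the authors' deposited ratios. It was 6 with normexp offset 0 and with blank spots subtracted, where Sirt3 lay just below 0. It was 5 with loess within print blocks, where Sirt3 was at -0.01 and Sirt6 at -0.02. It was also 5 with the local background subtracted, where Sirt6 was at -0.03 and Sirt7 at -0.02. On the control array the count was 7 with median centring, 4 in the authors' deposited ratios and 5 under the other alternatives.

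**Figure D3:**
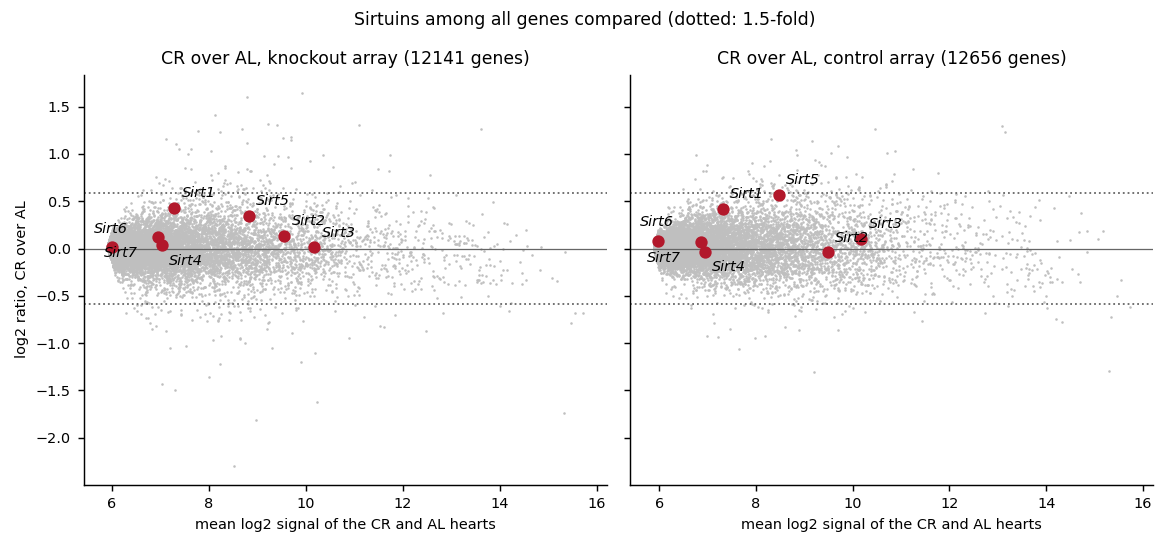
Log2 ratio of CR over AL (vertical axis) against the mean log2 signal of both hearts (horizontal axis) for all genes compared on the knockout array (left) and the control array (right), with the 7 sirtuins in red and 1.5-fold as dotted lines. Sirt1 and Sirt5 lie in the upper part of the cloud on both arrays, at 0.43 and 0.35 on the knockout array and 0.42 and 0.57 on the control array, and no member crosses the lines.

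For the knockout response minus the control response, 4 of 7 members were above 0, with a median of 0.02. The count was 2 of 7 with median centring (median -0.05) and 5 of 7 in the authors' deposited ratios (median 0.05). As reported, no member was past 1.5-fold, against 0.376% of 11698 genes upwards and 0.513% downwards. Sirt2 had the highest difference, 0.18, and Sirt5 the lowest, -0.22, but the order changed with the setting. Sirt6 was the lowest with normexp offset 0 (-0.35), with blank spots subtracted (-0.59) and in the authors' deposited ratios (-0.64). Subtraction of the local background made Sirt4 the highest (0.53) and Sirt7 the lowest (-0.15), and with loess within print blocks Sirt4 was the highest (0.09). Any dye effect that is equal on both arrays cancels in these values.

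Knockout over control was above 0 for 4 of 7 members under CR (median 0.11) and for 5 of 7 under AL (median 0.05). Subtracting the local background left 4 of 7 above 0 under CR (median 0.17) and 2 of 7 under AL, where the median turned to -0.17. As reported, no member was past 1.5-fold under CR, against 1.43% of 11957 genes upwards and 1.08% downwards. None was past it under AL, against 2.57% of 12783 genes upwards and 1.78% downwards. With that subtraction 2 members passed 1.5-fold on each diet, Sirt5 upwards and Sirt2 downwards. Over all genes 11.1% then passed it upwards and 10.4% downwards under CR, and 9.67% and 9.54% under AL. The arrays differed in other ways too. Myl7 and Myl4, atrial myosin light chains, had the lowest knockout over control values of 8 atrial markers, with Myl7 at -4.06 under CR and -3.95 under AL, and Myl4 at -2.71 under CR and -2.47 under AL. Of the atrial markers compared, 5 of 7 were lower in the knockout under CR (median -0.11) and 6 of 8 under AL (median -0.07). Of the macrophage markers compared, 8 of 10 were higher in the knockout under CR (median 0.14) and 10 of 11 under AL (median 0.29). Sums of marker brightness, given next, are scanner readings before normalization. They are in Cy3 for CR and Cy5 for AL, so the diets are not on one scale. The summed brightness of 11 macrophage markers above blank was 1246 in the knockout CR heart and 2274 in the knockout AL heart. It was 1214 in the control CR heart and 1470 in the control AL heart. In the same order of hearts, 10, 11, 11 and 11 of these markers were detected. The 8 atrial markers together summed to 4979 above blank in the knockout CR heart, 2352 in the knockout AL heart, 4081 in the control CR heart and 3399 in the control AL heart. That sum includes Nppa, the atrial natriuretic peptide that stressed ventricles also make, which was higher in the knockout by 1.95 under CR and 0.99 under AL (0.51 under CR with the local background subtracted). The part of atrial tissue or macrophages in the sirtuin values was not tested.

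**Figure D4:**
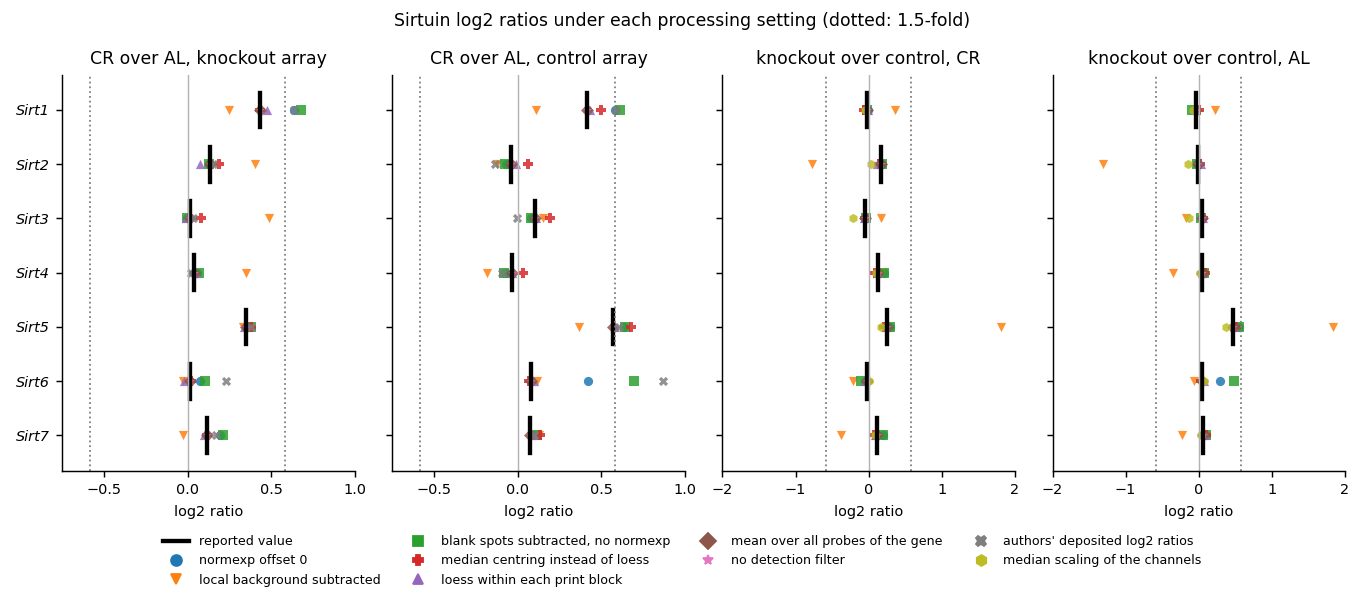
Log2 ratios of the 7 sirtuins (rows) in 4 comparisons (panels) as reported (bars) and under each alternative processing (symbols), with 1.5-fold as dotted lines; the horizontal axes of the 2 genotype panels are wider. Sirt1 and Sirt5 stay right of 0 on both arrays for CR over AL, and subtraction of the local background sets Sirt5 at 1.81 (CR) and 1.84 (AL) and Sirt2 at -0.78 (CR) and -1.31 (AL) for knockout over control.

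The genes whose pattern over the 4 hearts was nearest to that of Sirt1 were sought among 11393 named genes detected in all hearts, by the Euclidean distance of log2 signals centred on each gene's own mean. They were Cfap298 (distance 0.042), Catsper2 (0.048) and Brd8dc (0.050), and 32 genes lay within 0.1. Their CR over AL values were 0.45, 0.40 and 0.41 on the knockout array and 0.38, 0.36 and 0.35 on the control array, in that order of genes. Nearest to Sirt5 were Thoc2 (0.065), Tceal8 (0.082) and Pnn (0.085), with 4 genes within 0.1. Thoc2 was 0.39 on the knockout array and 0.51 on the control array, and it was higher in the knockout by 0.26 under CR and 0.38 under AL. The likeness changed in knockout over control with the local background subtracted. Sirt1 was then 0.36 under CR and 0.23 under AL. Cfap298, Catsper2 and Brd8dc were 1.63, -0.14 and -0.08 under CR and 1.26, -0.23 and -0.0003 under AL. Sirt5 was 1.81 under CR and 1.84 under AL. Thoc2, Tceal8 and Pnn were -0.02, -1.07 and -0.62 under CR and 0.15, -0.86 and -0.47 under AL. With 4 hearts and so many genes, near patterns are easy to find, and the distances describe these hearts only.

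Genes that supply or use NAD were also read. Of 12 listed genes of NAD synthesis, 10 had a probe. On the knockout array 7 of 9 compared genes were higher in the CR heart, with a median of 0.08, and on the control array 5 of 8, with a median of 0.10. Subtraction of the local background made these medians 0.05 on the knockout array and 0.003 on the control array, and with normexp offset 0 they were 0.18 and 0.21. One of them was past 1.5-fold on each array, and it was Nampt, the rate-limiting enzyme of the salvage of nicotinamide to NAD. Its log2 signal was 10.12 in the knockout CR heart, 9.16 in the knockout AL heart, 10.03 in the control CR heart and 9.40 in the control AL heart. CR over AL was 0.97 on the knockout array and 0.63 on the control array, between 0.92 and 1.05 on the knockout array and between 0.576 and 0.733 on the control array over the settings. The lowest of these, with the local background subtracted, was just short of 1.5-fold (0.585 on the log2 scale). The lowest of the list was Nmnat1, a nuclear enzyme of the last step of NAD synthesis, at -0.17 on the knockout array and -0.16 on the control array. Of 7 listed NAD consumers other than sirtuins, 5 were compared and 1 of 5 was higher in the CR heart on each array. The medians were -0.14 on the knockout array and -0.06 on the control array. They were -0.43 and -0.26 with normexp offset 0, and -0.17 and -0.04 with the local background subtracted. The gene higher in the CR heart was Parp1, which builds poly-ADP-ribose at DNA breaks, at 0.02 on the knockout array and 0.13 on the control array. The lowest was Nnmt, which methylates nicotinamide, at -0.39 on the knockout array and -0.30 on the control array. It was at -1.18 and -0.80 in the authors' deposited table, and at -0.05 and -0.21 with the local background subtracted.

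Regulators of the Sirt1 protein or gene and proteins that Sirt1 deacetylates showed no common direction. Of 18 listed regulators, 6 of 16 were higher in the CR heart on the knockout array (median -0.03) and 9 of 15 on the control array (median 0.02). The highest was Ppargc1a, a co-activator of mitochondrial genes, at 0.51 on the knockout array and 0.49 on the control array. Its log2 signal was 9.49 in the knockout CR heart, 8.99 in the knockout AL heart, 9.08 in the control CR heart and 8.59 in the control AL heart, so both CR hearts were above both AL hearts on this scale. After subtraction of the local background it gave CR over AL values of 0.42 (knockout array) and 0.12 (control array). It was then higher in the knockout by 1.57 under CR and 1.27 under AL, so that the knockout AL heart was above the control CR heart. The lowest was Rps19bp1, an activator of Sirt1, at -0.35 on the knockout array and -0.20 on the control array. Of 28 listed proteins deacetylated by Sirt1, 13 of 25 were higher in the CR heart on the knockout array and 16 of 27 on the control array. One passed 1.5-fold on the knockout array, Irs2, an adaptor of the insulin receptor, at 0.67. On the control array Irs2 was 0.37. After subtraction of the local background it was 0.35 on the knockout array, short of 1.5-fold, and -0.09 on the control array. The lowest on the knockout array was Srebf1, a regulator of lipid synthesis, at -0.23. The lowest on the control array was Arntl, a clock transcription factor, at -0.42.

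Of 26 listed mitochondrial proteins on which Sirt3, Sirt4 or Sirt5 act, 24 were measured. On the knockout array 19 of 24 were higher in the CR heart (median 0.09) and on the control array 21 of 24 (median 0.16). Acadl, an acyl-CoA dehydrogenase of fatty acid oxidation, was the highest on both. Its log2 signal was 13.38 in the knockout CR heart, 12.81 in the knockout AL heart, 13.11 in the control CR heart and 12.50 in the control AL heart. CR over AL was 0.57 on the knockout array and 0.61 on the control array, and the first value turned to -1.23 with the local background subtracted. The lowest were Pdhx, a subunit of pyruvate dehydrogenase, at -0.32 on the knockout array, and Atp5o, a subunit of ATP synthase, at -0.31 on the control array. Between genotypes, 22 of 24 were higher in the knockout under CR (median 0.25, 4 past 1.5-fold) and 20 of 24 under AL (median 0.45, 7 past 1.5-fold). Over all genes 51.0% were above 0 and 1.43% past 1.5-fold upwards under CR, and 52.6% and 2.57% under AL. The highest was Sdha, a subunit of succinate dehydrogenase that Sirt3 deacetylates, at 0.85 under CR and 1.12 under AL. These medians turned to -0.43 under CR and -0.26 under AL with the local background subtracted, and with median scaling of the channels they were 0.04 under CR and 0.22 under AL.

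The classical histone deacetylases, which do not use NAD, served as the other family of lysine deacetylases. Of 11 listed genes, 9 were compared, and 5 of 9 were higher in the CR heart on each array, with medians of 0.04 on the knockout array and 0.03 on the control array (-0.04 and -0.06 with the local background subtracted). Hdac2, a nuclear enzyme, was the highest at 0.22 on the knockout array and 0.35 on the control array. Hdac5, which shuttles between nucleus and cytoplasm, was the lowest at -0.16 on the knockout array, where it turned to 0.17 with the local background subtracted, and at -0.34 on the control array. Knockout over control was above 0 for 2 of 9 under CR and 3 of 9 under AL, with medians of -0.16 under CR and -0.15 under AL. Hdac5 was the lowest there too, at -0.44 under CR and -0.62 under AL. After subtraction of the local background the medians were -0.41 under CR and -0.29 under AL, and Hdac5 was at -1.24 under CR and -1.61 under AL. The difference between the families was not tested.

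**Figure D5:**
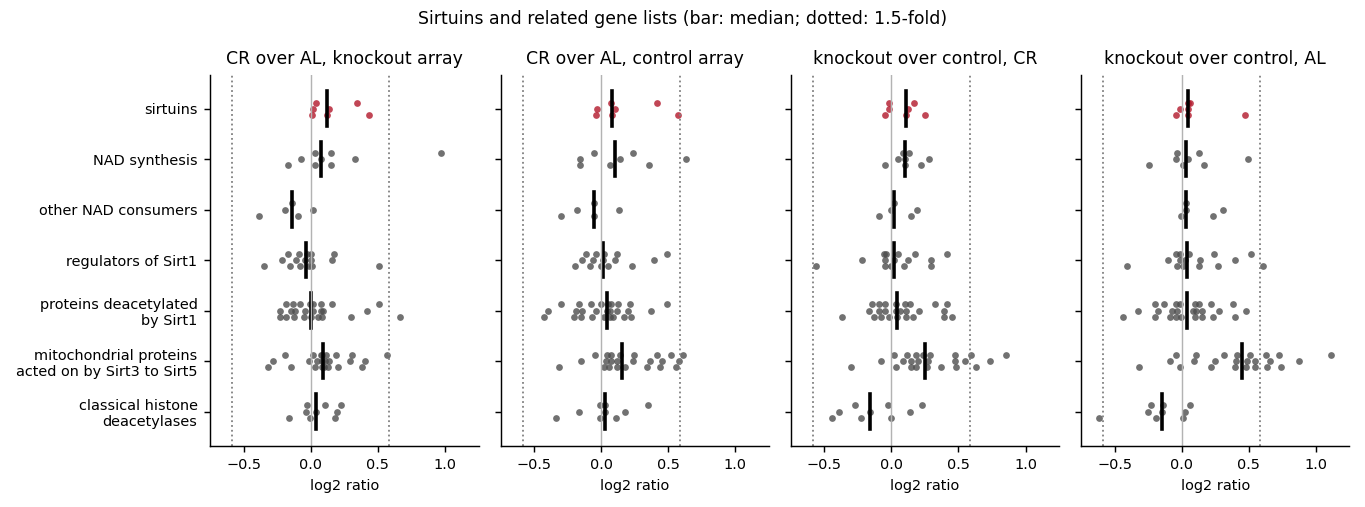
Log2 ratios of the single genes (points) of the sirtuin family and of 6 related lists (rows) in 4 comparisons (panels), with each median as a bar and 1.5-fold as dotted lines. The sirtuins lie inside the dotted lines in all 4 panels, Nampt is the point beyond them among genes of NAD synthesis for CR over AL, and the mitochondrial list lies right of 0 for knockout over control, which turns with the local background subtracted.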

How the data were processed

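The scanner intensity of every spot, at 635 nm for Cy5 and 532 nm for Cy3, and the brightness around it were deposited by the authors, per the file headers. A table of log2 ratios, CR over AL by its labels, was also deposited by the authors. Here it was rebuilt as the ratio of both signals minus the mean of the blank spots, centred by a constant of -0.144 on the knockout array and -0.359 on the control array: 16555 of 16556 and 17405 of 17406 values lay within 0.001. The medians of its columns were 8.079e-05 on the knockout array and -2.885e-06 on the control array, so its scale, centring and direction are known.

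Spot intensities without local background were corrected by normexp (offset 50) and normalized by loess within each array with limma 3.58.1 in R 4.3.3. Channels were set against each other across arrays after Aquantile normalization. The local background was not subtracted because it followed the spot (Spearman 0.875 to 0.944 over 4 channels). Its subtraction is an alternative. A spot was detected where it exceeded the mean of 2736 blank spots, without 5% at each end, by 2 SD. The 2 spots on the knockout array and the 1 on the control array that were marked by the scanner were left out. Genes with several probes took the brightest.

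Of 16631 probes with 1 symbol (none had several), 12622 symbols were current, 3947 were updated through RefSeq and 62 did not match. Members and lists were chosen with earlier results of these data known. The genes named are all members, the 3 nearest to Sirt1 and to the member with the widest range, and of each list the genes with the top and bottom CR over AL value on an array plus any that reached 2-fold. Sdha came in by that last rule. Myl7, Myl4, Nppa and the macrophage markers were named after their values were seen. A gene counted as called past 1.5-fold. Part of the calculation was tested on simulated data. No result of that test is given here, and it does not check the values of single members. The number of arrays limits the precision.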

Additional observations from a re-analysis of the deposited data

Results flagged for a closer look

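For Sirt2 and Sirt4 the CR over AL values were of opposite sign on the arrays. Sirt2 was 0.14 on the knockout array and -0.04 on the control array, a difference of 0.18, which 9.16% of genes exceeded. Among 675 genes of like signal 17.6% exceeded it. Sirt4 was 0.04 on the knockout array and -0.03 on the control array, a difference of 0.0720, which 28.2% of genes exceeded. With 1 heart per condition these differences were not tested. Median centring put both genes above 0 on both arrays. Over the alternatives the difference ran from 0.08 to 0.53 for Sirt2 and from 0.004 to 0.53 for Sirt4, highest for both with the local background subtracted.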

How the results depend on the processing

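The mean over all probes and no detection filter repeat the reported value of every member, since each has 1 probe that was detected in all hearts. Over the 7 members and 5 comparisons, the other alternatives gave 210 values, of which 177 moved by less than the between-probe SD and 33 by more. No member was past 1.5-fold as reported, so there was no call to lose. Outside the family, Nppa turned sign with the local background subtracted: CR over AL on the knockout array was -0.16, against 0.99 as reported, and the knockout response minus the control response was -0.38, against 0.96. The count of 0 members past 1.5-fold changed as follows. With normexp offset 0 it was 1 on the knockout array (Sirt1) and 1 on the control array (Sirt5). Of all genes, 3.146% were then past 1.5-fold upwards on the knockout array and 3.603% on the control array. With blank spots subtracted and in the authors' deposited ratios the count of members was 1 on the knockout array (Sirt1) and 3 on the control array (Sirt1, Sirt5 and Sirt6). For the difference of the responses the count was 1 (Sirt6). With blank spots subtracted, 6.76% of all genes were past it upwards on the knockout array and 7.06% on the control array. For the difference 7.01% were past it downwards. In the deposited ratios these shares were 7.84%, 8.79% and 7.32%, in that order. Median centring gave 1 on the control array (Sirt5), where 1.65% of all genes were past it upwards. With the local background subtracted, knockout over control gave 2 under CR, where 11.1% of all genes were past it upwards and 10.4% downwards. It gave 2 under AL, where 9.67% were past it upwards and 9.54% downwards. The family median of CR over AL on the knockout array was then 0.33 (0.12 as reported). The cause was not tested. Over all genes, the share of calls that were upward was 50% on the knockout array and 70.5% on the control array as reported, against 58.9% and 89.3% with median centring and 58.8% and 43.9% with the local background subtracted. For the difference of the responses it was 42.3%, against 25.6% with median centring and 59.8% with the local background subtracted. For knockout over control it was 57.0% under CR and 59.2% under AL, against 26.5% and 35.5% with median scaling of the channels. Over all genes more were called without the offset: on the knockout array 382 genes were upward and 424 downward with normexp offset 0, against 92 and 92 as reported, and on the control array 456 and 310, against 103 and 43. In the authors' deposited ratios 952 were upward and 729 downward on the knockout array, and 1113 and 575 on the control array. With the local background subtracted, knockout over control had 1331 upward and 1242 downward under CR, against 171 and 129 as reported, and 1236 and 1219 under AL, against 329 and 227. No paired analysis was possible because each condition is 1 heart. Sirt6 lies too near the blank level for its ratio to be read.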
